A study of Mus musculus with 4 samples.

Results

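The 28 genes described here are those of cholesterol synthesis and handling, a list chosen by gene symbol from the 28694 genes of the count tables. They are 18 enzymes of synthesis (Acat2, Hmgcs1, Mvk, Pmvk, Mvd, Idi1, Fdps, Fdft1, Sqle, Lss, Cyp51, Tm7sf2, Msmo1, Nsdhl, Hsd17b7, Ebp, Sc5d and Dhcr7), 5 genes of sterol sensing (Insig1, Insig2, Srebf1, Srebf2 and Scap) and 5 genes of transport, storage and efflux with their regulators (Stard4, Soat2, Abca1, Nr1h2 and Nr1h3). All 28 had a row in each of the 4 tables. None of them encodes a receptor that takes up lipoproteins, so uptake itself was not analysed here.

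Cholesterol is built from acetyl-CoA through mevalonate and farnesyl diphosphate to squalene, which is closed to lanosterol and then trimmed to cholesterol. When sterols in the endoplasmic reticulum are low, SCAP carries the SREBP factors to the Golgi, where they are cut free to enter the nucleus and turn on the synthesis genes, whereas INSIG proteins hold SCAP back when sterols are plentiful. Oxidised sterols bind the LXR receptors, encoded by Nr1h2 and Nr1h3, which turn on efflux genes such as Abca1 and also Srebf1. In the intestine, goblet cells make the mucus and absorptive cells take up dietary and biliary cholesterol.

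The 4 single-cell libraries came from intestinal epithelium of RedMUC298trTg mice, whose goblet cells carry an mCherry-tagged mucin, aged 6 to 8 weeks. Replicates 1 and 2 of the distal colon (DC) were compared with replicates 1 and 2 of Si8, the small intestine's 8th portion. Both regions share the strain and the sort, which used mCherry presence or absence, and no treatment or other genotype is labelled. The labels do not say which mCherry gate a library holds or whether the libraries came from separate mice, so p-values measure only the spread between these libraries.

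The tables held 10827 cell barcodes, 1536 to 5098 per library, with 26075303 to 66880457 UMIs, and 10243 cells were kept. Each kept cell was placed in a state by cuts on marker genes, none of them a member of the 28. Cycling cells were above a cut on 42 cell-cycle genes, and no cut on mucin genes was applied to them. The others were Muc3-high (Muc3, a membrane mucin of differentiated epithelium, above its cut and the goblet mucus genes Muc2 and Fcgbp below theirs) or goblet cells with a low or high level of Clca1, a secreted goblet protein. In the order DC 1, DC 2, Si8 1 and Si8 2, there were 450, 1262, 182 and 707 cycling cells, 134, 589, 49 and 198 Muc3-high cells, 432, 1286, 121 and 167 Clca1-low cells, and 450, 694, 462 and 536 Clca1-high cells. Cells above both mucin cuts (142, 597, 397 and 235 in the same order) or below both (222, 271, 235 and 276) entered no comparison. Nor did the 93 Paneth, 27 enteroendocrine, 16 tuft and 13 immune cells marked by their genes. The cuts were set within each region, in UMIs per 10000, at 28.6 in DC and 132.6 in Si8 for the goblet genes, 4.48 and 1.39 for Muc3, and 10.3 and 50.8 for Clca1. The same state name therefore covers different marker levels in the 2 regions, and the median Clca1 level of Si8 Clca1-low cells, 34.8 and 36.7, was like that of Clca1-high cells in DC 2 (34.6). In Si8 30.9% of the cells tested lay within 0.5 log2 units of the Clca1 cut and 19.7% of those near the Muc3 cut, against 12.1% and 2.72% in DC. Near the goblet cut lay 23.2% in Si8 and 16.2% in DC. Between 1 and 16 barcodes were shared by a pair of libraries.

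The labels call all of these cells goblet cells, and all 10 goblet markers were detected in each of the 16 sums of a state and library. The summed cells left out as Paneth, enteroendocrine, tuft or immune in DC 2, Si8 1 and Si8 2 also held all 10. Detection in a sum therefore does not mark goblet cells. The summed level of these markers was 10573 to 54048 CPM (UMIs scaled to a common library total) in the Muc3-high cells and 128340 to 326630 CPM in the Clca1-high cells. The Muc3-high cells of Si8 held 19614 and 27033 CPM of 12 small intestinal absorptive markers, with 1 of the 12 at 0 in each library, against 1522 to 2663 CPM in the other 3 states of Si8. In the Muc3-high cells of DC the same list summed to 63.8 and 124 CPM. A list of 10 colonic absorptive markers summed to 1393 and 3895 CPM in the Muc3-high cells of DC 1 and DC 2. In the Clca1-high cells of DC 1 and DC 2 that list summed to 1962 and 1691 CPM, so the direction differed between the libraries. In Si8 it summed to 3800 and 4005 CPM in Muc3-high and 12058 and 13885 CPM in Clca1-high cells. A high sum of this list therefore does not mark colonic absorptive cells here. Markers of Paneth cells summed to 679 to 9718 CPM across the Si8 states. These lists move with state and region, and their part in the results below was not tested.

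The promoters of the members are shown first because the synthesis genes share a sequence feature there that the list did not use. RefSeq starts on GRCm38.p6 were found for 23 of the 28 members. The window searched on both strands ran from 250 bases before to 50 bases after each start. A CCAAT box, bound by NF-Y, a factor known to act beside SREBP, lay in the window of 14 of 15 synthesis genes (93.3%), in 4 of 5 sensing genes and in none of Abca1, Nr1h2 and Nr1h3. The same letters lay in the windows of 41.1% of all 27025 genes in the promoter table. A gene counted if any of its windows matched. Counted by window, the letters lay in 14 of 18 for synthesis genes (77.8%) and 5 of 10 for sensing genes (50%). The share of all 32851 windows was 37.4%. The sterol regulatory element searched as TCACNCCAC, which does not overlap the CCAAT letters, was found in Hmgcs1 alone among the members (1 of 23, 4.35%) and in 1.44% of all genes. The 250 bases before the start are printed 5′ to 3′ on the gene's strand, with CCAAT (or its reverse, ATTGG) and the sterol element in capitals. Hmgcs1 and Msmo1 carried the largest falls in level described below, Insig1 the largest region difference of a sensing gene, and Nr1h3 the largest rise.
Hmgcs1 (chr13:119690101-119690350, plus strand): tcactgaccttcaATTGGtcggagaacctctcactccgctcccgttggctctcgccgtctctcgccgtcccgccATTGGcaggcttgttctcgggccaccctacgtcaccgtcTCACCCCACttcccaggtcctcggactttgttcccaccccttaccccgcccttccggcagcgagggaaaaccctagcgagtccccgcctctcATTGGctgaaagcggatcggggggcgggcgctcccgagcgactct
Msmo1 (chr8:64733579-64733828, minus strand): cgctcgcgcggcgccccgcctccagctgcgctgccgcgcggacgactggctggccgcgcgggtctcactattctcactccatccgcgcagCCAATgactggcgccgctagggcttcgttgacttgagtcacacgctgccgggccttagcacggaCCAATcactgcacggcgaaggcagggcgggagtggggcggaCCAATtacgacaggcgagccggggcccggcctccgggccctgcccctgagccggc
Insig1 (chr5:28071162-28071411, plus strand): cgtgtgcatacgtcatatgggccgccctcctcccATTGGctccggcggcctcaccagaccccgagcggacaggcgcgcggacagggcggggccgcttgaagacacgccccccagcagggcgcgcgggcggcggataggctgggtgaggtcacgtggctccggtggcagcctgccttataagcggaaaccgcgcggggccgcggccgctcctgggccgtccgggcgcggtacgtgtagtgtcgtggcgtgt
Nr1h3 (chr2:91195117-91195366, minus strand): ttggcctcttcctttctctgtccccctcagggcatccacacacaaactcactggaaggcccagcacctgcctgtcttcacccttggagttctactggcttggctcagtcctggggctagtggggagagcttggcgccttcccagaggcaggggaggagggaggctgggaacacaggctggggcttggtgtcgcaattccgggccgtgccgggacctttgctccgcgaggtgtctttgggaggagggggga

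In these windows Hmgcs1 had its sterol element 137 bases before the start and 3 CCAAT boxes at 237, 176 and 45 bases before it, with another 10 bases past the start, outside the printed stretch. Msmo1 had 3 CCAAT boxes, at 160, 96 and 55 bases before the start, and Insig1 had 1, at 216 bases. The Nr1h3 window held neither motif. A match is a run of letters and not a measured binding site, and its absence says only that those letters are not in the window.

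Messenger RNA of the synthesis pathway stood highest in Clca1-high goblet cells and lowest in cycling and Muc3-high cells, in both regions. UMIs of each state were summed within each library, and levels are given throughout as CPM after TMM scaling of the 16 sums. The summed level of the 18 enzymes in cycling cells was 1044 and 1124 in DC and 864 and 858 in Si8. Muc3-high cells held 1003 and 1158 in DC and 1090.0 and 1126 in Si8. Clca1-low cells stood between, at 1544 and 1482 in DC and 1453 and 1716 in Si8, and Clca1-high cells reached 1741 and 1838 in DC and 1832 and 2417 in Si8. In each library all 3 other states lay below the Clca1-high cells. The mean difference from Clca1-high cells over the 4 libraries was -1.01 ± 0.37 (SD, n = 4) on the log2 scale in cycling cells, -0.83 ± 0.19 in Muc3-high cells and -0.33 ± 0.13 in Clca1-low cells. Hmgcs1, the enzyme that makes HMG-CoA, supplied 11.5% to 16.2% of these UMIs in cycling and Muc3-high cells and 20.03% to 23.36% in Clca1-high cells.

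**Figure D1:**
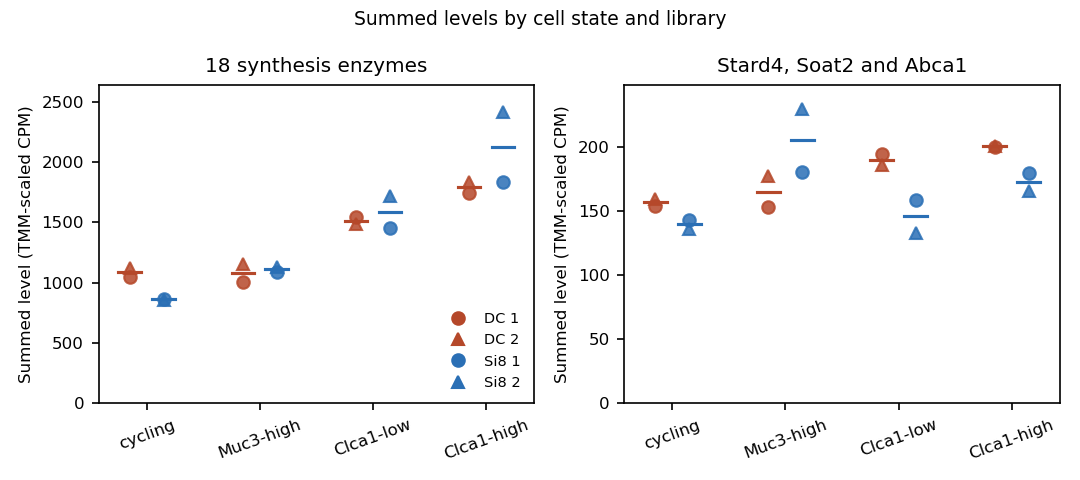
Summed level (TMM-scaled CPM) of the 18 synthesis enzymes (left) and of Stard4, Soat2 and Abca1 (right) in each cell state. Each point is 1 library and each line the mean of the 2 libraries of a region. The synthesis sum stands highest in Clca1-high cells of every library, while the other sum has no such order in Si8.

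The summed level of genes that move, store or export cholesterol, most of it Stard4, shared that order in DC and not in Si8. The sum of Stard4 (a carrier of sterols between membranes), Soat2 (which esterifies cholesterol for storage and for lipoproteins) and Abca1 (the pump that loads cholesterol onto apolipoprotein A-I) ranged from 133 to 230.3 CPM, and Stard4 made up 91.3% to 99.8% of its UMIs. Muc3-high cells held 153 and 178 in DC and 181 and 230.3 in Si8, and Clca1-high cells 201 and 201 in DC and 179.8 and 166 in Si8. The Muc3-high cells thus stood below in both DC libraries. In Si8 they were level in Si8 1 (a log2 difference of 0.0083) and above in Si8 2 (0.474). The ratio of the synthesis sum to this sum was 6.04 to 7.04 in cycling cells, 4.89 to 6.55 in Muc3-high cells, 7.93 to 12.9 in Clca1-low cells and 8.68 to 14.6 in Clca1-high cells. Abca1 alone had another order in DC, with mean levels of 2.73 in Muc3-high, 1.93 in cycling, 0.737 in Clca1-high and 0.351 in Clca1-low cells. These levels rested on 29, 68, 9 and 7 UMIs. No test was made of a sum over chosen genes.

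These levels are shares of a cell's RNA, and the share depends on what else the cell makes. TMM factors ran from 1.11 to 1.25 in cycling sums and were 0.712 and 0.653 in the Clca1-high sums of Si8. With library totals alone the median of all 11700 genes was 0.53 higher on the log2 scale in cycling than in Clca1-high cells, 0.44 higher in Muc3-high and 0.16 higher in Clca1-low cells, and the summed synthesis differences shrank to -0.50, -0.40 and -0.15. Counted per cell, cycling cells held 26.2 and 24.1 in DC and 24.8 and 25.6 in Si8 synthesis UMIs, and Clca1-high cells 17.8 and 17.9 in DC and 20.4 and 30.0 in Si8. Muc3-high cells held 19.7 and 19.3 in DC and 31.7 and 29.7 in Si8, the highest mean of the 4 states in Si8, so the order of the states per cell is not that of the CPM. A cycling cell of DC likewise held more synthesis UMIs than a Clca1-high cell of DC, among 20183 and 17937 UMIs in all, against 10232 and 9717.

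Cycling cells were first compared with Clca1-high cells, averaged over both regions, in 1 edgeR quasi-likelihood fit of the 16 sums with the library as a block. Of the 28 members, 21 fell and 3 rose at an adjusted p under 0.05, among 11700 genes of which 33.1% fell and 34.6% rose. With library totals alone, 11 members fell and 7 rose, and the calls over all genes went from 51.2% higher to 79.9% higher. The median difference of the 18 enzymes was -0.71 on the log2 scale and -0.20 with library totals, against 0.03 and 0.53 for all genes. All 3 state comparisons are made against the Clca1-high sums and are not independent of each other.

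Hmgcs1 fell most. Its level in cycling cells was 164 and 163 in DC and 99.2 and 102 in Si8, against 375 and 429.5 in DC and 367 and 522 in Si8 in Clca1-high cells. Every cycling sum lay below every Clca1-high sum, and the difference was -1.72 ± 0.08 SE, adjusted p = 4.31e-14. Of the other mevalonate enzymes, Fdps, which makes farnesyl diphosphate, fell by 1.05 on the log2 scale (adjusted p = 3.72e-11), from 214 and 197 in DC and 334 and 407 in Si8 to 132 and 139 in DC and 141 and 122 in Si8. The cycling sums of Fdps overlapped between the regions, while in Clca1-high cells Si8 stood above DC. Idi1 (isopentenyl diphosphate isomerase) and Mvd (the decarboxylase before it) also fell, by 0.67 and 0.64. Mvk and Pmvk, the 2 kinases that phosphorylate mevalonate, had differences of -0.36 (adjusted p = 0.00462) and -0.25 (adjusted p = 0.00965), which turned to 0.15 and 0.26 with library totals.

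Acat2, which joins 2 acetyl-CoA at the head of the pathway, was the 1 enzyme that rose. It stood at 30.1 and 40.4 in DC and 24.8 and 28.8 in Si8 in cycling cells and 24.2 and 27.0 in DC and 16.9 and 29.5 in Si8 in Clca1-high cells, a difference of 0.32 ± 0.10 SE, adjusted p = 0.00581. The cycling and Clca1-high sums overlapped. The call rested on single libraries, as did those of Mvk, Pmvk and Nsdhl, and the adjusted p with 1 library left out was past the threshold for Acat2 (0.0753 without DC 2 and 0.128 without Si8 1), Mvk (0.307 without Si8 2), Pmvk (0.377 without Si8 2) and Nsdhl (0.2 without Si8 2).

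Between squalene and cholesterol the differences ran from -1.36 (Msmo1) to -0.05 (Dhcr7). Fdft1 (squalene synthase) went from 132 and 154 in DC and 126 and 176 in Si8 to 69.8 and 75.2 in DC and 50.4 and 52.4 in Si8, a difference of -1.27 ± 0.08 SE, adjusted p = 2.58e-11. Sqle (squalene epoxidase) and Lss (lanosterol synthase) fell by 0.91 and 0.81. Msmo1 (the C4-methyl oxidase) went from 229.7 and 209 in DC and 179 and 200.02 in Si8 to 109.7 and 95.5 in DC and 65.2 and 58.9 in Si8, a difference of -1.36 ± 0.07 SE, adjusted p = 3.54e-13. No cycling sum of Fdft1 or Msmo1 reached a Clca1-high sum. Cyp51 (lanosterol demethylase), Sc5d (a sterol desaturase) and Ebp (a sterol isomerase) fell by 1.19, 1.03 and 0.76. The smaller differences of Tm7sf2 (-0.49), Hsd17b7 (-0.49) and Nsdhl (-0.43), which reduce or oxidise sterol intermediates, were 0.02, 0.02 and 0.08 with library totals. Dhcr7, the last reductase of the pathway, was not called (-0.05 (adjusted p = 0.65)) and had 0.46 with library totals.

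Among the sensing genes, Insig1, itself a sterol-repressed SREBP target, fell with the enzymes. Its level was 61.5 and 71.8 in DC and 41.3 and 39.8 in Si8 in cycling cells and 143 and 174 in DC and 61.7 and 84.5 in Si8 in Clca1-high cells (-1.06 ± 0.08 SE, adjusted p = 8.54e-11). Each library showed the fall, and the DC Clca1-high sums stood apart above all others. Insig2, its less sterol-dependent homolog, and Srebf2, the SREBP factor of synthesis genes, had differences of -0.69 and -0.43, with -0.18 and 0.08 under library totals. Srebf1, the SREBP factor of fatty acid synthesis and an LXR target, rose, from 28.1 and 33.4 in DC and 16.7 and 18.5 in Si8 to 43.2 and 47.4 in DC and 21.4 and 26.8 in Si8 (0.52 ± 0.09 SE, adjusted p = 5.83e-05). Within each region both cycling sums were above both Clca1-high sums. Scap, the escort of the SREBP proteins, was called in no state or region comparison.

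Nr1h3, which encodes LXR alpha, rose in cycling cells from 0.654 and 2.23 in DC and 3.50 and 4.21 in Si8 to 3.71 and 6.03 in DC and 6.69 and 9.10 in Si8 (1.36 ± 0.19 SE, adjusted p = 2.13e-06). Nr1h2 (LXR beta) and Stard4 had -0.42 and -0.34, but 0.08 and 0.17 with library totals, so their direction depends on the scaling. Of the cycling calls, 11 falls (Hmgcs1, Idi1, Fdps, Fdft1, Sqle, Lss, Cyp51, Msmo1, Ebp, Sc5d and Insig1) and 2 rises (Srebf1 and Nr1h3) kept their call in all 16 alternative settings.

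**Figure D2:**
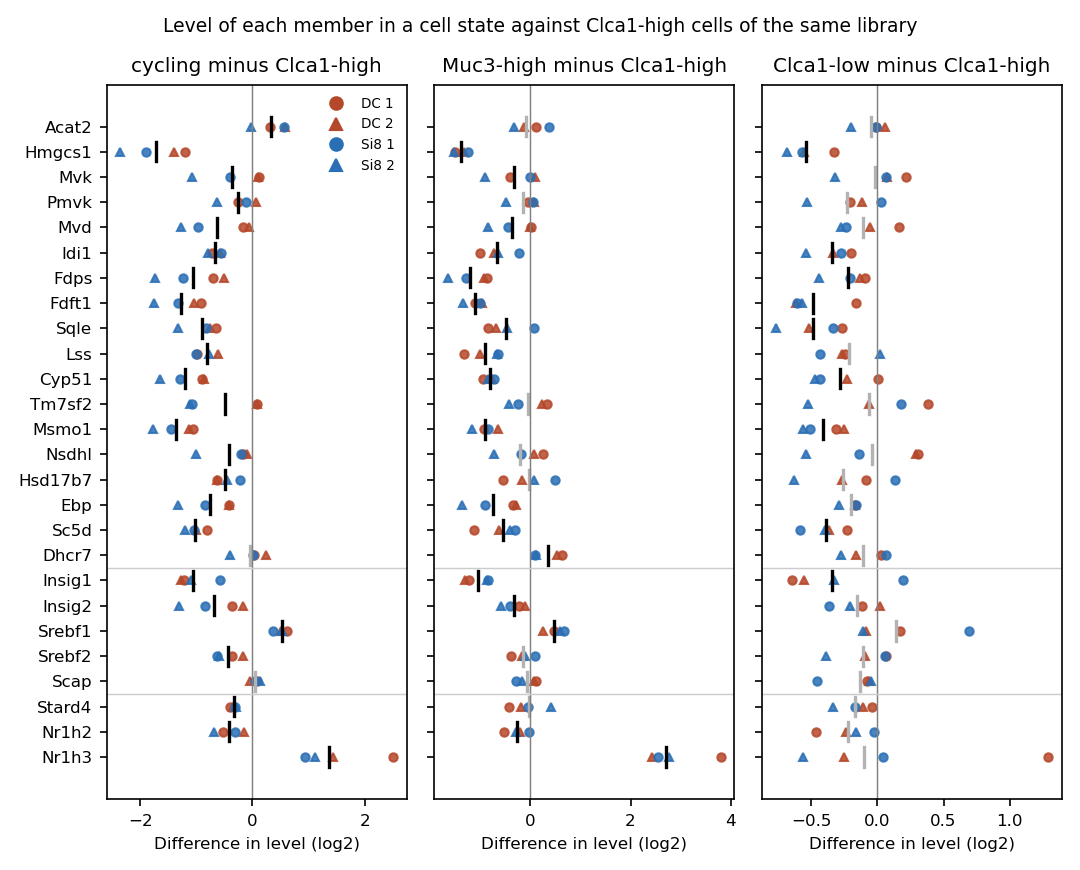
Difference in level from the Clca1-high cells of the same library (log2 of TMM-scaled CPM) for 26 members in cycling, Muc3-high and Clca1-low cells. Each point is 1 library, and the upright bar is the fitted mean of both regions, black where the adjusted p was under 0.05. Hmgcs1, Fdft1, Cyp51, Msmo1, Sc5d and Insig1 lie left of 0 in all 4 libraries of the first 2 panels, and Nr1h3 lies right of 0. Soat2 and Abca1, at or near 0 UMIs in some sums, are left out, grey lines separate synthesis, sensing and other genes, and the panels have different scales.

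In Muc3-high cells, 15 of the 28 members fell and 5 rose against Clca1-high cells, where 26.1% of all genes fell and 25.5% rose. With library totals 9 fell and 12 rose, while calls over all genes went from 49.4% to 80.9% higher. Of the 18 enzymes 12 fell and 1 rose. Hmgcs1 stood at 133 and 170.4 in DC and 156 and 182 in Si8 and differed by -1.39 ± 0.08 SE, adjusted p = 4.76e-12. Fdps, at 118 and 104 in DC and 136 and 130.2 in Si8, differed by -1.20 ± 0.08 SE, adjusted p = 3.38e-11, and Fdft1, at 61.2 and 78.5 in DC and 62.4 and 69.4 in Si8, by -1.11 ± 0.09 SE, adjusted p = 2.36e-09. These 3 genes lay below their Clca1-high level in every library. Lss, Msmo1, Cyp51, Ebp, Idi1, Sc5d, Sqle, Mvd and Mvk fell by 0.90, 0.90, 0.81, 0.74, 0.66, 0.56, 0.48, 0.36 and 0.32. Dhcr7 was the enzyme that rose (0.35 ± 0.10 SE, adjusted p = 0.00523), from 38.6 and 40.2 in DC and 21.2 and 29.0 in Si8 to 59.6 and 57.9 in DC and 22.4 and 31.6 in Si8. Without single libraries calls were lost for Dhcr7 (0.143 without Si8 2), Mvk (0.0618 without DC 1 and 0.957 without Si8 2) and Mvd (0.19 without Si8 2), each with its adjusted p.

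Insig1 fell by 1.04 on the log2 scale in Muc3-high cells (adjusted p = 1.87e-09), from the levels above to 60.8 and 70.9 in DC and 34.3 and 46.3 in Si8. Insig2 and Nr1h2 had smaller differences, -0.34 and -0.26, that turned to 0.10 and 0.17 with library totals and were not called without single libraries (Insig2, 0.077 without Si8 2 and Nr1h2, 0.138 without DC 1 and 0.261 without Si8 2). Srebf1 rose to 38.7 and 39.7 in DC and 26.6 and 27.9 in Si8 (0.48 ± 0.11 SE, adjusted p = 0.00108), yet with cells thinned to 3000 UMIs each its difference was -0.09. Acat2, Pmvk, Tm7sf2, Nsdhl, Hsd17b7, Srebf2, Scap and Stard4 were not called.

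The largest rise was that of Nr1h3, whose Muc3-high level was 9.12 and 11.997 in DC and 20.3 and 28.7 in Si8. All 4 sums stood above those of the other states in the same library, and the difference from Clca1-high cells was 2.72 ± 0.19 SE, adjusted p = 9.39e-11. The gene was counted in 142 UMIs of the DC and 179 of the Si8 Muc3-high cells, against 18 and 46 in Clca1-high cells. Abca1 gave 29 and 9 UMIs in Muc3-high cells of DC and Si8 and 9 and 3 in Clca1-high cells. It stood at 3.42 and 2.03 in DC and 0 and 1.72 in Si8 in Muc3-high cells, and in Clca1-high cells at 0.436 and 1.04 in DC and 0 and 0.451 in Si8. The difference was 1.81 ± 0.55 SE, adjusted p = 0.00947, and without 1 library the adjusted p reached 0.0594 without DC 1 and 1 without Si8 2. Soat2 was measurable in Si8 alone, where it stood at 14.7 and 18.4 in Muc3-high and 9.13 and 6.47 in Clca1-high cells, a difference within Si8 of 1.16 ± 0.26 SE, adjusted p = 0.00107. The averaged Soat2 call, 1 of the 5 rises, was kept in 9 of 16 settings, and with 1 library left out its adjusted p was 0.141 without DC 1, 0.179 without DC 2 and 0.102 without Si8 2. The small intestinal absorptive markers were also highest in the Si8 Muc3-high cells, as given above. Of the Muc3-high calls, 9 falls (Hmgcs1, Idi1, Fdps, Fdft1, Lss, Cyp51, Msmo1, Ebp and Insig1) and the rise of Nr1h3 kept their call in all 16 settings.

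Clca1-low cells differed least. Of the 28 members 9 fell and 0 rose, where 12.4% of all genes fell and 7.68% rose, and no member reached an unadjusted p under 0.05 in the higher direction with edgeR or DESeq2 (0 and 0). With library totals 4 fell and 0 rose, and calls over all genes went from 38.2% to 76.7% higher. Hmgcs1 stood at 299 and 292 in DC and 247 and 324 in Si8, between its cycling and its Clca1-high level in each library, and differed from Clca1-high cells by -0.54 ± 0.08 SE, adjusted p = 3.20e-05. Sqle, Fdft1 and Msmo1 fell by 0.49, 0.49 and 0.41. Sc5d, Insig1, Idi1, Cyp51 and Fdps fell by 0.39, 0.35, 0.35, 0.29 and 0.22, calls that library totals ended. Without 1 library the adjusted p of these 5 passed the threshold, as for Sc5d (0.0793 without Si8 1 and 0.0618 without Si8 2), Insig1 (0.213 without Si8 2), Idi1 (0.142 without Si8 2), Cyp51 (0.0839 without DC 2, 0.0507 without Si8 1 and 0.119 without Si8 2) and Fdps (0.0757 without DC 2 and 0.26 without Si8 2). Hmgcs1 was the 1 member whose call held in all 16 settings.

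The size of the fall differed between regions for some enzymes. Cycling cells of DC and Si8 also differed in goblet marker and Muc3 level, as given above, and the part of this was not tested. For cycling cells the difference between the DC and the Si8 contrast was called for 11 of 28 members (26.4% of all genes), in each case with the lower value in Si8. Mvd went from 42.3 and 68.6 in Clca1-high to 21.6 and 28.3 in cycling cells of Si8, a difference of -1.16 ± 0.11 SE, adjusted p = 1.19e-08. In DC it went from 38.4 and 42.0 to 34.0 and 40.1 (-0.11 ± 0.11 SE, adjusted p = 0.406). The test of the difference gave 1.05 ± 0.15 SE, adjusted p = 4.01e-05. Tm7sf2 behaved likewise, with -1.07 in Si8, 0.08 in DC and 1.15 ± 0.23 SE, adjusted p = 8.85e-04 between them. For Muc3-high cells 5 members were called (22.0% of all genes), of which Ebp had the largest difference (0.86 ± 0.15 SE, adjusted p = 3.44e-04). For Clca1-low cells 0 members were called (0.624% of all genes), with 3 at an unadjusted p under 0.05 in edgeR (Nsdhl, Cyp51 and Insig1) and 0 called by DESeq2. The Clca1-high levels of Si8 2 stood above those of Si8 1 for Hmgcs1, Mvd and Fdps, and without Si8 replicate 2 the cycling count was 3. With library totals 5 of the 11 cycling calls were kept. The median of all genes was then -0.42 for cycling and -0.35 for Muc3-high cells, and the calls over all genes went from 57.0% to 13.6% and from 58.2% to 18.8% higher in DC.

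**Figure D3:**
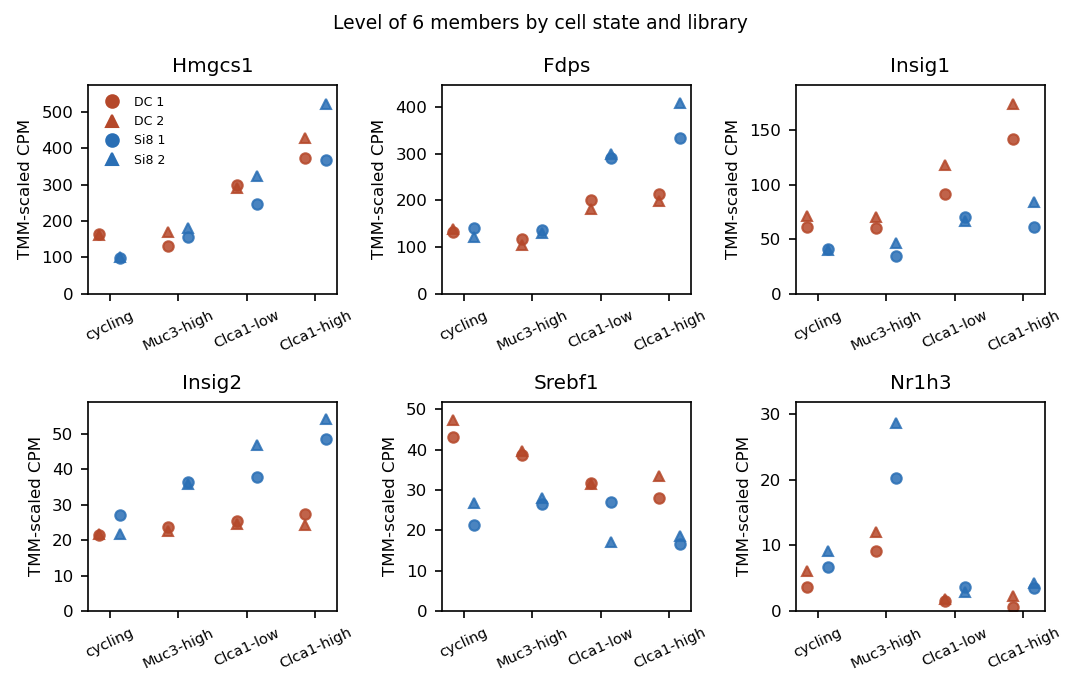
Level (TMM-scaled CPM) of 6 members in each cell state, each point 1 library. Hmgcs1 and Fdps are lower in cycling and Muc3-high than in Clca1-low and Clca1-high cells, Insig1 is highest in Clca1-high cells of DC, Insig2 in those of Si8, the DC points of Srebf1 lie above the Si8 points, and Nr1h3 is highest in Muc3-high cells.

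The regions were next compared within each state, DC minus Si8, 2 libraries against 2, in 1 edgeR fit per state. Since the Muc3, goblet and Clca1 cuts differ between regions, the cells of a state are not matched in marker level, and the part of this in the differences was not tested. In cycling cells 12 of 28 members were higher in DC and 2 lower, among all genes 15.4% and 12.6%. In Muc3-high cells 3 of the 27 tested were higher and 6 lower (16.1% and 15.5%). In Clca1-low cells 6 of 26 were higher and 5 lower (14.5% and 16.1%), and in Clca1-high cells 5 of 27 were higher and 6 lower (22.0% and 21.6%). Abca1, and in Clca1-low cells also Nr1h3, did not pass the filter on low counts. With library totals the counts were 14 and 1, 5 and 3, 18 and 2, and 16 and 3 in the order of states given, where the median of all genes was 0.13, 0.17, 0.44 and 0.57 in place of 0.03, 0.01, 0.03 and 0.05. The share of all calls that were higher in DC then went from 55.0% to 65.4%, from 50.9% to 63.7%, from 47.4% to 81.2% and from 50.5% to 84.4%.

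Dhcr7 and Insig1 were higher in DC in each of the 4 states. Dhcr7 stood at 39.4 and 47.7 in DC and 21.2 and 22.0 in Si8 in cycling cells (1.03 ± 0.14 SE, adjusted p = 9.07e-04) and at 59.6 and 57.9 in DC and 22.4 and 31.6 in Si8 in Muc3-high cells (1.07 ± 0.20 SE, adjusted p = 0.00134). No DC sum of Dhcr7 overlapped a Si8 sum. Its differences in Clca1-low and Clca1-high cells were 0.70 and 0.68. Insig1 differed most in Clca1-high cells, at 143 and 174 in DC and 61.7 and 84.5 in Si8 (1.15 ± 0.17 SE, adjusted p = 2.94e-04), and by 0.74, 0.68 and 0.63 in cycling, Muc3-high and Clca1-low cells. Both DC levels were above both Si8 levels in each state.

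Insig2 went the other way. It stood at 27.5 and 24.3 in DC and 48.5 and 54.0 in Si8 in Clca1-high cells (-0.96 ± 0.14 SE, adjusted p = 3.03e-04) and was lower in DC by 0.77 in Clca1-low and by 0.64 in Muc3-high cells, but with library totals by -0.36 (adjusted p = 0.0921) and -0.48 (adjusted p = 0.0699), neither called. In cycling cells it was not called (-0.14 (adjusted p = 0.531)). Colon goblet cells thus held more Insig1 and less Insig2 than those of the small intestine, and both differences kept their call in Clca1-high cells in all 16 settings. Srebf1 was higher in DC in cycling (0.90 ± 0.14 SE, adjusted p = 0.00207), Clca1-high (0.84) and Muc3-high cells (0.52). In cycling cells it reached 43.2 and 47.4 in DC and 21.4 and 26.8 in Si8, with no overlap. Srebf2 was called higher in DC in cycling cells (0.50 (adjusted p = 0.0341)), and this call was lost with DESeq2. Of the sensing genes, the adjusted p with 1 library left out was past the threshold in cycling cells for Insig1 (0.0508 without Si8 2) and Srebf2 (0.0994 without DC 2, 0.201 without Si8 1 and 0.0725 without Si8 2), in Muc3-high cells for Insig1 (0.156 without Si8 1), Insig2 (0.0727 without DC 2, 0.0655 without Si8 1 and 0.111 without Si8 2) and Srebf1 (0.0773 without DC 2, 0.185 without Si8 1 and 0.212 without Si8 2), and in Clca1-low cells for Insig1 (0.0778 without DC 2, 0.058 without Si8 1 and 0.114 without Si8 2) and Insig2 (0.0837 without Si8 2).

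Among the synthesis enzymes, Ebp and Fdps were lower in DC. Ebp in Clca1-high cells stood at 116 and 133 in DC and 243 and 313 in Si8 (-1.12 ± 0.15 SE, adjusted p = 1.65e-04), in Clca1-low cells it differed by -1.08 and in cycling cells by -0.46, a call that library totals ended (-0.36, adjusted p = 0.0798). Its Muc3-high difference of -0.31 was not called. Fdps differed by -0.81 ± 0.14 SE, adjusted p = 7.08e-04 in Clca1-high and -0.62 in Clca1-low cells, but with library totals by -0.29 and -0.21, neither called. Sc5d was lower in DC in Muc3-high (-0.86 (adjusted p = 0.00751)) and Clca1-high cells (-0.40 (adjusted p = 0.0244)), the second with 0.12 under library totals. Sqle was called lower in DC in Muc3-high cells (-0.66 (adjusted p = 0.0202)), and the call was lost with library totals (-0.50, adjusted p = 0.0691) and with DESeq2.

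Other enzymes were higher in DC. Hsd17b7 stood at 25.5 and 23.3 in DC and 12.039 and 17.0 in Si8 in Clca1-high cells (0.76 ± 0.19 SE, adjusted p = 0.00882) and differed by 0.85 in Clca1-low cells. Idi1 differed by 0.48, 0.60 and 0.47 in cycling, Clca1-low and Clca1-high cells. In cycling cells Tm7sf2, Msmo1, Hmgcs1, Cyp51, Mvd and Fdft1 were also higher, by 1.09, 0.75, 0.71, 0.57, 0.56 and 0.51. Hmgcs1, whose cycling levels did not overlap between regions, kept this call in all 16 settings, as did Dhcr7 and Srebf1. Without Si8 replicate 2 the number of members higher in cycling cells of DC was 5, and without Si8 replicate 1 it was 7. Among the enzymes, the adjusted p in cycling cells was past the threshold for Ebp (0.139 without DC 1, 0.176 without Si8 1 and 0.0955 without Si8 2), Mvd (0.0639 without DC 2 and 0.165 without Si8 1), Idi1 (0.145 without Si8 1 and 0.0897 without Si8 2), Fdft1 (0.102 without Si8 1 and 0.1 without Si8 2), Cyp51 (0.0599 without DC 2, 0.114 without Si8 1 and 0.0794 without Si8 2) and Msmo1 (0.0645 without Si8 2). Msmo1 was also called higher in Clca1-low cells (0.48), while Acat2, Mvk, Pmvk, Lss, Nsdhl and Scap were called in no region comparison. With 1 library left out, calls were also lost in Muc3-high cells for Sqle (0.0514 without DC 1 and 0.125 without Si8 1), in Clca1-low cells for Idi1 (0.0572 without DC 1, 0.0919 without Si8 1 and 0.0698 without Si8 2), Fdps (0.0568 without Si8 2), Msmo1 (0.0658 without DC 1, 0.172 without Si8 1 and 0.111 without Si8 2), Hsd17b7 (0.0813 without DC 1 and 0.147 without Si8 2) and Dhcr7 (0.0572 without Si8 1 and 0.0511 without Si8 2), and in Clca1-high cells for Idi1 (0.236 without Si8 1), Hsd17b7 (0.0576 without Si8 1), Sc5d (0.0837 without DC 1 and 0.129 without Si8 2) and Dhcr7 (0.0642 without Si8 1).

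**Figure D4:**
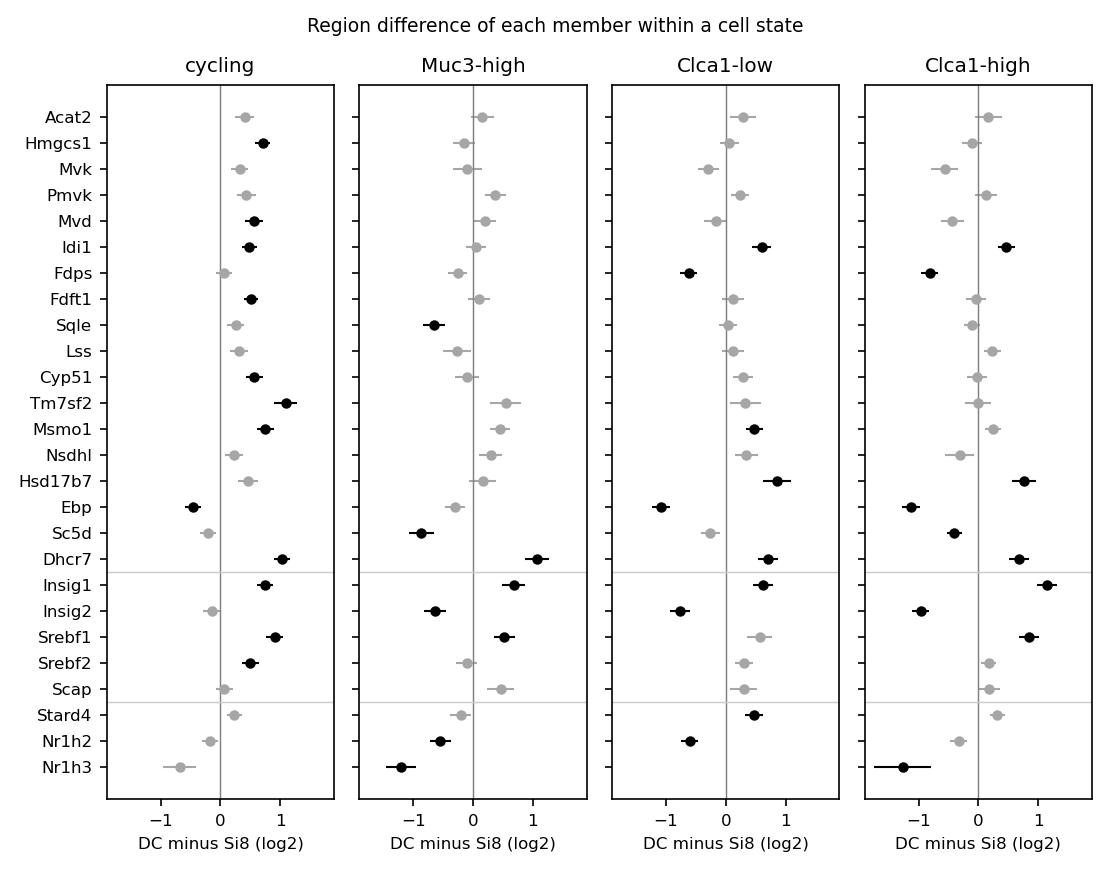
Fitted difference between regions (DC minus Si8, log2) of 26 members in each cell state, with the standard error as bars and black points where the adjusted p was under 0.05. Dhcr7 and Insig1 lie right of 0 in all 4 panels, and Ebp lies left of 0 in all 4, called in 3. Soat2 and Abca1 are left out, Nr1h3 was not tested in Clca1-low cells, and grey lines separate synthesis, sensing and other genes.

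The sharpest region difference was that of Soat2, the sterol esterifying enzyme of enterocytes and liver. It gave 5 UMIs in cycling, 3 in Muc3-high, 1 in Clca1-low and 0 in Clca1-high cells of DC. In Si8 it gave 169, 117, 31 and 90. Its Si8 level was 49.2-fold that of DC in cycling cells (95% interval 20.7 to 154, exact, for counting error only), and the ratio rested on 3 and 1 DC UMIs in Muc3-high (73.1-fold, 24.4 to 359) and Clca1-low cells (151-fold, 25.2 to 6153). In Clca1-high cells it was at least 28.8-fold higher in Si8, taking 3 UMIs over both DC libraries as the limit that a count of 0 allows. Soat2 was called lower in DC in all 4 states, with adjusted p from 2.52e-06 to 3.42e-05.

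Nr1h3 was lower in DC in Muc3-high cells (-1.21 ± 0.25 SE, adjusted p = 0.003), where the DC and Si8 levels did not overlap. In Clca1-high cells its difference of -1.27 ± 0.47 SE, adjusted p = 0.0486 rested on 18 UMIs in DC and 46 in Si8 and was called in 5 of 14 alternative settings. Nr1h2 was lower in DC in Clca1-low (-0.60 (adjusted p = 0.00979)) and Muc3-high cells (-0.55 (adjusted p = 0.0333)), and neither call held with library totals. Abca1 was tested in cycling cells, where it was higher in DC, with 68 UMIs against 7 in Si8. It reached 2.30 and 1.55 in DC and 0.191 and 0.284 in Si8 there (2.81 ± 0.54 SE, adjusted p = 0.00535), and the adjusted p was 0.0832 without Si8 2. Stard4, at 194 and 185 in DC and 151 and 125 in Si8 in Clca1-low cells, was called higher in DC in that state (0.47 ± 0.15 SE, adjusted p = 0.0354) and not in the other 3. Calls with 1 library left out were lost for Stard4 (0.0847 without DC 1, 0.0567 without Si8 1 and 0.316 without Si8 2) and Nr1h2 (0.0624 without Si8 2) in Clca1-low cells and for Nr1h2 (0.0602 without DC 2, 0.138 without Si8 1 and 0.116 without Si8 2) and Nr1h3 (0.0836 without Si8 2) in Muc3-high cells.

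Genes next to the pathway, in 4 lists drawn up from its biology, were counted in the same fits, where 34.6% of all genes rose and 33.1% fell in cycling cells and 25.5% rose and 26.1% fell in Muc3-high cells. The median cycling difference was 0.62 for a list of SREBP targets, mostly of fatty acid synthesis. For the genes that cut SREBP or degrade pathway proteins it was -0.34, for the prenyl branch 0.19 and for other sterol transport -0.45. For all genes it was 0.03. With library totals the 4 list medians were 1.12, 0.16, 0.70 and 0.05, against 0.53 for all genes. Of the 14 tested SREBP targets, which include Aacs and the sterol-regulated Tmem97, 8 rose and 4 fell in cycling cells. In Muc3-high cells 6 rose and 4 fell. Fads1 and Scd1, which desaturate fatty acids, rose by 4.13 and 1.10 in cycling cells, while Elovl6 (an elongase) and Aacs (acetoacetyl-CoA synthetase) differed by -1.30 and -0.80. The Elovl6 value averages opposite changes. In DC Elovl6 went from 60.2 and 51.8 in Clca1-high to 8.58 and 7.43 in cycling cells. In Si8 it went from 29.1 and 28.4 to 35.2 and 32.3. In Muc3-high cells Scd1 rose by 2.43 and Fads2 by 1.26, and Tmem97, a sterol-regulated membrane protein, differed by -1.23. Between regions, Scd1 and Acss2 (acetyl-CoA synthetase) were higher in DC in every state, by 2.24 to 4.38 and 1.59 to 2.42. The Scd1 level of Si8 was low, at 1.34 and 1.04 in cycling, 0.599 and 0.815 in Clca1-low and 0.777 and 0.752 in Clca1-high cells. The size of its differences there is therefore uncertain. Elovl6 was lower in DC in cycling (-2.07) and Muc3-high cells (-2.28), while in Clca1-high cells it stood at 60.2 and 51.8 in DC and 29.1 and 28.4 in Si8, the other way.

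Of 7 tested genes that cut SREBP or degrade pathway proteins, 2 rose and 4 fell in cycling cells. Rnf145, a sterol-sensing ubiquitin ligase, rose by 0.97, and Erlin1, part of the degradation machinery at the endoplasmic reticulum, differed by -1.22. In Muc3-high cells 2 rose and 3 fell. Of 13 genes of the branch from farnesyl diphosphate to prenylation, dolichol and coenzyme Q, 6 rose and 5 fell in cycling cells. Pdss1, which makes the coenzyme Q side chain, rose by 1.93, and Nus1, of dolichol synthesis, differed by -0.64. Of 17 other sterol transport genes and LXR targets, 1 rose and 10 fell in cycling cells, and 2 rose and 9 fell in Muc3-high cells. Cyp27a1 (sterol 27-hydroxylase) and Abcg1 (a sterol exporter) differed by -2.16 and -2.13 in cycling cells. Rxra, the partner of the LXR receptors, and Lpcat3, an LXR target of phospholipid remodelling, rose by 1.58 and 0.99 in Muc3-high cells. In the region comparisons Soat1, the more widespread esterifying enzyme, was higher in DC by 2.81 in Muc3-high and 0.70 in cycling cells. In Clca1-low cells it stood at 26.2 and 23.8 in DC and 31.1 and 33.8 in Si8.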

How the data were processed

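Single-cell RNA was measured in 2 DC and 2 Si8 libraries. The authors deposited UMI counts for each gene in each barcode, without normalization, and the submitters' processing notes name Cell Ranger 2.1.1 and mm10. The sources used here do not name the gene annotation version, and promoter windows came from RefSeq on GRCm38.p6, matched by symbol.

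Of 10827 barcodes, 10522 had 500 or more genes and no more than 20% of their UMIs from mitochondrial genes. Scrublet's own threshold in scanpy 1.11.5 marked 20 cells (0.190%), so a number of top-scoring cells that grew with the library's size was taken out in its place (279 cells). States were set by Otsu cuts on marker genes, within region except for cell-cycle genes, at log2 UMIs per 10000. UMIs were summed per state and library, since cells are not replicates. Sums were tested with the edgeR 4.0.16 quasi-likelihood test (R 4.3.3) after filterByExpr (minimum count 10) and TMM scaling, with Benjamini-Hochberg adjustment over all genes and a threshold of 0.05. State contrasts used 1 fit of 16 sums with the library as a block and a state-by-region term. The fit was checked on counts with known changes. Alternatives were DESeq2 1.42.0, library totals, no filter, each library left out, cells thinned to 3000 UMIs, cluster states, shifted cuts, cells above both cuts added, the 10 most abundant genes left out, no doublet removal, and the fit with or without a block.

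Every member is named, and from each other list up to 3 called genes per direction with the largest difference could be. The members, gene lists and states were chosen with earlier results of these data known, and lists give counts and medians alone. UMI intervals cover counting error only.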

Additional observations from a re-analysis of the deposited data

Results flagged for a closer look

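The change from Clca1-high to cycling cells differed between the regions, by edgeR's interaction test, for 11 of 28 members, where 26.4% of all genes were called. Each value is the DC change minus the Si8 change on the log2 scale, followed by the change in each region. Among the mevalonate enzymes, the regions differed for Hmgcs1 by 0.84 (DC -1.30, Si8 -2.14, adjusted p = 2.93e-04), Mvk by 0.94 (DC 0.11, Si8 -0.83, adjusted p = 0.00211), Mvd by 1.05 (DC -0.11, Si8 -1.16, adjusted p = 4.01e-05) and Fdps by 0.91 (DC -0.60, Si8 -1.50, adjusted p = 7.49e-05). Among the later enzymes they differed for Fdft1 by 0.59 (DC -0.98, Si8 -1.57, adjusted p = 0.0125), Cyp51 by 0.62 (DC -0.88, Si8 -1.50, adjusted p = 0.00269), Tm7sf2 by 1.15 (DC 0.08, Si8 -1.07, adjusted p = 8.85e-04), Msmo1 by 0.53 (DC -1.10, Si8 -1.63, adjusted p = 0.00686), Nsdhl by 0.61 (DC -0.12, Si8 -0.73, adjusted p = 0.0252) and Ebp by 0.68 (DC -0.41, Si8 -1.10, adjusted p = 0.00113). The sensing gene Insig2 differed by 0.88 (DC -0.25, Si8 -1.13, adjusted p = 7.48e-04). All 11 values were positive, meaning a lower change in Si8, and every Si8 change was below 0. In DC the changes of Mvk, Mvd, Tm7sf2, Nsdhl and Insig2 from Clca1-high to cycling cells did not pass the test. Mvd and Fdps kept this call in all 16 alternative settings, and the other 9 calls of cycling cells were each lost in at least 1. With library totals 5 of the 11 calls were kept. Those lost were Ebp (0.25, adjusted p = 0.151), Nsdhl (0.16, 0.533), Cyp51 (0.18, 0.316), Mvk (0.49, 0.0591), Msmo1 (0.09, 0.629) and Fdft1 (0.15, 0.501).

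For the change from Clca1-high to Muc3-high cells the regions differed for 5 of 28 members, a share below the 22.0% of all genes called. These were Mvd by 0.72 (DC 0.00, Si8 -0.72, adjusted p = 0.00528), Fdps by 0.58 (DC -0.91, Si8 -1.49, adjusted p = 0.00838), Nsdhl by 0.66 (DC 0.12, Si8 -0.54, adjusted p = 0.0436), Ebp by 0.86 (DC -0.31, Si8 -1.17, adjusted p = 3.44e-04) and Stard4 by -0.52 (DC -0.29, Si8 0.23, adjusted p = 0.0192). Stard4, the sterol carrier, was the 1 member with a negative value. Its change in Si8 did not pass the test (adjusted p = 0.0954), and the call was lost without DC replicate 1 (0.0519) and without Si8 replicate 2 (0.448). Calls were also lost without Si8 replicate 2 for Mvd (adjusted p = 0.332), Fdps (0.206) and Nsdhl (0.666), and for Nsdhl without DC replicate 1 (0.0942) and DC replicate 2 (0.0727). With library totals the adjusted p of Mvd, Fdps and Nsdhl was 0.170, 0.334 and 0.409. Ebp, the sterol isomerase, kept its call with each library left out and with library totals, and lost it with thinned cells and with cells above both cuts added to the Muc3-high state. The Muc3-high cells of Si8 also held the most RNA of the small intestinal absorptive markers, 19614 and 27033 CPM. The part of those cells in these differences was not tested.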

How the results depend on the processing

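With library totals in place of TMM, 74 of 114 called member results kept direction and call, 27 lost the call and 13 changed sign, against 91 kept with DESeq2, 102 with cluster states, 57 of 107 with thinned cells, 113 without the filter on low counts, 113 without doublet removal and all 114 without the 10 most abundant genes. The counts below are members called, higher then lower, region comparisons being DC against Si8 and state comparisons against Clca1-high cells. With library totals they were 14 and 1 (region, cycling), 5 and 3 (region, Muc3-high), 18 and 2 (region, Clca1-low), 16 and 3 (region, Clca1-high), 7 and 11 (cycling), 12 and 9 (Muc3-high) and 0 and 4 (Clca1-low), and 12 members differed between regions for Muc3-high cells. With thinned cells they were 6 and 0, 2 and 0, 3 and 1, and 3 and 3 by region, 1 and 9 in Muc3-high cells and 4 lower in Clca1-low cells, with 5, 1 and 1 differing between regions for cycling, Muc3-high and Clca1-low cells. DESeq2 gave 1 and 3 (region, Muc3-high), 2 higher (region, Clca1-low) and 3 higher (region, Clca1-high). Cluster states gave 15 lower in Clca1-low cells and 2 differing for Muc3-high cells. Cuts moved up gave 3 and 8 (region, Clca1-low), 3 lower (region, Clca1-high), 3 higher in Muc3-high cells, 2 lower in Clca1-low cells and 1 differing for Clca1-low cells, and cuts moved down gave 3 lower (region, Clca1-low). Cells above both cuts, added to the Muc3-high state, gave 3 higher there and 1 differing between regions, and added to the goblet states gave 1 higher in Clca1-low cells. Without the filter 8 members differed between regions for Muc3-high cells.

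With library totals the summed synthesis differences from Clca1-high cells were -0.50, -0.40 and -0.15 (log2) in cycling, Muc3-high and Clca1-low cells, and the summed differences of Stard4, Soat2 and Abca1 were 0.17, 0.40 and 0.0136, of which the first and last changed sign. Without Stard4 the latter were 0.60, 1.61 and -0.44. Cluster states gave a synthesis difference of -0.46 in Clca1-low cells and a handling difference of -0.41 in cycling cells, cuts moved up gave -0.13 for synthesis in Clca1-low cells and -0.22 and -0.007 for handling in cycling and Clca1-low cells, and cells above both cuts added as goblet gave 0.0129 for handling in Clca1-low cells. Single members changed sign with library totals in Clca1-high cells between regions (Hmgcs1 0.42, Fdft1 0.48, Sqle 0.42, Cyp51 0.51 and Sc5d 0.12), in cycling cells (Mvk 0.15, Pmvk 0.26, Tm7sf2 0.0156, Nsdhl 0.0836, Hsd17b7 0.0153, Dhcr7 0.46, Srebf2 0.0808, Stard4 0.17 and Nr1h2 0.0842), in Muc3-high cells (Acat2 0.35, Mvk 0.11, Pmvk 0.29, Mvd 0.0745, Tm7sf2 0.39, Hsd17b7 0.41, Insig2 0.10, Srebf2 0.29, Scap 0.37, Stard4 0.40 and Nr1h2 0.17) and for Idi1 in the cycling difference between regions (-0.40). Cuts moved up turned Hmgcs1 between regions in Clca1-low cells to -0.47 and Fdps in Clca1-low cells to 0.10, and thinning turned Srebf1 in Muc3-high cells to -0.0900. The causes were not tested.

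With each library left out in turn, 56 of 114 called member results were kept under all 4, and without Si8 replicate 2 alone 51 of 113 were lost. Members higher ranged from 5 to 14, 1 to 4, 0 to 5 and 2 to 7 by region in cycling, Muc3-high, Clca1-low and Clca1-high cells, and lower from 1 to 3, 3 to 5, 1 to 5 and 4 to 8. By state, higher ranged from 2 to 3, 2 to 5 and 0 to 0, and lower from 18 to 21, 11 to 17 and 4 to 9 in cycling, Muc3-high and Clca1-low cells. Members differing between regions ranged from 3 to 13, 2 to 6 and 0 to 0. Synthesis sums ranged from -1.11 to -0.84, -0.88 to -0.74 and -0.38 to -0.27, and handling sums from -0.35 to -0.31, -0.19 to 0.10 and -0.20 to -0.11. A left-out library leaves its region with 1 sample, assumed to vary like the others.

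The replicate numbers are not stated to pair libraries, and same-numbered libraries' deviations correlated at 0.143, 0.00281, 0.108 and 0.142 in cycling, Muc3-high, Clca1-low and Clca1-high cells. With the replicate number as a block, members higher and lower between regions were 16 and 3, 3 and 6, 7 and 5, and 6 and 8. With no replicate block in the state fit, 52 of 69 called results were kept, and 6 and 1 members differed between regions for cycling and Muc3-high cells. Over all genes, calls by region were 3354, 3220, 3092 and 4617 in cycling, Muc3-high, Clca1-low and Clca1-high cells, by state 7921, 6032 and 2351, and for the difference between regions 3092, 2574 and 73. Those moved by more than 1.5 times were, in this order, as follows. Thinned cells gave 1412, 1164, 1192 and 2210, then 5264, 3039 and 1029, then 1019, 743 and 45. Without Si8 replicate 2 there were 1833, 2107 and 2057 (cycling, Muc3-high and Clca1-low by region), 1055 (Clca1-low), then 1251, 1065 and 7. No replicate block gave 1110 (Clca1-low), then 1426, 1333 and 5. DESeq2 gave 2098 (region, Muc3-high) and 1900 (difference, cycling), and the removal of Si8 replicate 1 gave 1431 in Clca1-low cells. The Muc3-high difference was 1218 with cells above both cuts as Muc3-high. The Clca1-low difference ranged from 5 to 359. Depth limits Soat2 in DC (5, 3, 1 and 0 UMIs by state), Abca1 in goblet cells (9 UMIs or fewer in a region's sum) and Nr1h3 in goblet cells (13 to 46 UMIs).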

Other observations

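Cells that entered no comparison are given here as plain CPM without TMM scaling, with no test. In cells above both mucin cuts, Hmgcs1 stood at 265 and 267 in DC and at 226 and 346 in Si8. Insig1 was at 114 and 126 in DC there and at 39.3 and 55.2 in Si8, and Srebf1 at 40.0 and 55.1 in DC against 8.69 and 15.95 in Si8. Soat2 was at 0.520 and 0.379 in DC and at 7.96 and 12.02 in Si8. The DC and Si8 libraries did not overlap for Insig1, Srebf1 and Soat2 and overlapped for Hmgcs1. The cells above both cuts in Si8 1 had a median of 7246 UMIs, against 13474 to 17801 in the other 3 libraries.

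In cells below both cuts the summed synthesis level was 1460.3 and 1381 in DC and 1338 and 1231 in Si8. Fdps stood there at 199 and 195 in DC and at 302 and 241 in Si8, with no overlap. The 45 and 78 cells set aside in Si8 1 and Si8 2 had synthesis sums of 328 and 309 CPM, below those of every state in these libraries. They included 34 and 59 Paneth cells, and Paneth markers made up 456060 and 488080 CPM of their RNA. That share lowers the plain CPM of every other gene in them.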
